A study of Mus musculus with 4 samples.

Results

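The 10 genes described here mark macrophages and other leukocytes: C1qa, C1qb, C1qc, Tyrobp, Fcer1g, Csf1r, Cx3cr1, Ptprc, Cd68 and Laptm5. They were chosen by symbol from 32888 named gene units measured in all 4 libraries, and each was 1 unit with a valid status in every library. Messenger RNA came from dermal cells that were sorted by fluorescence for an Axin2-LacZ reporter in mouse embryos, which reads out Axin2, a feedback gene of canonical Wnt signalling. The 4 groups were ventral foot skin at E17.5, reporter-positive and reporter-negative, and dorsal back skin at E14.5, reporter-positive and reporter-negative, each with 1 library. As far as the labels say, all 4 groups come from the same reporter line, and the groups within a skin differ by the sort gate alone. The sources used here name neither strain, sex and litter nor the number of embryos behind a library. With 1 library per group no difference below has a replicate check and no test exists, and between foot and back the site and the stage changed together and cannot be told apart.

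Macrophages enter skin early in embryonic life, from yolk sac and later from fetal liver, and live in the dermis beside fibroblasts, vessels and mast cells. They depend on the receptor encoded by Csf1r, whose ligands Csf1 and Il34 are made by surrounding tissue. C1qa, C1qb and C1qc encode the chains of C1q, the recognition part of complement, which tissue macrophages secrete. Tyrobp and Fcer1g encode small membrane adaptors with an ITAM, a tyrosine motif that passes receptor signals to the kinase Syk. Ptprc encodes CD45, a phosphatase on the surface of nearly all leukocytes.

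Levels are in FPKM (fragments per kilobase of transcript, corrected for library size), with a lower and an upper bound that the authors' software gave. The bounds cover counting and read assignment within 1 library, and they implied about 2.72 M and 6.62 M fragments in the foot libraries labelled Axin2-positive and Axin2-negative, and 19.3 M and 16.9 M in the back libraries. Log2 ratios were taken as log2((FPKM + 1)/(FPKM + 1)) after division by library factors of 0.786 to 1.32, which understates changes of genes as low as these. Axin2 transcript went with the sort label in the back, at 4.49 FPKM (bounds 3.89 to 5.09) against 3.13 (2.63 to 3.64), and not in the foot, at 9.65 FPKM (7.10 to 12.5) in the library labelled Axin2-positive against 12.9 (10.2 to 15.3). The foot bounds of Axin2 overlapped, and its values are not divided by the library factors (1.10 and 1.32 in the foot), so its transcript does not settle the foot labels. Directions in the foot therefore follow the labels alone. The labelled cell type was borne out by its markers: all 12 fibroblast genes, among them Pdgfra and Col1a1, were above 0 in every library and summed to 3198 to 7279 FPKM. In bulk RNA, fewer cells of a type and less RNA per cell cannot be told apart.

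As a group the 10 genes were low in every library and highest in the back library labelled Axin2-negative. Their summed FPKM was 0.788 in the foot library labelled Axin2-positive, 2.71 in the foot library labelled Axin2-negative, 3.06 in the back library labelled Axin2-positive and 19.2 in the back library labelled Axin2-negative. In that order 2, 3, 9 and 10 of the genes were above 0. Only 1 value in the foot, that of Tyrobp, and 5 in the back library labelled Axin2-negative reached 1 FPKM, and 1 value, that of Fcer1g, reached 5 FPKM. The back library labelled Axin2-negative held 35.8% (Csf1r) to 95.0% (C1qc) of a gene's rescaled FPKM over the 4 libraries, and for C1qa all of it.

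**Figure D1:**
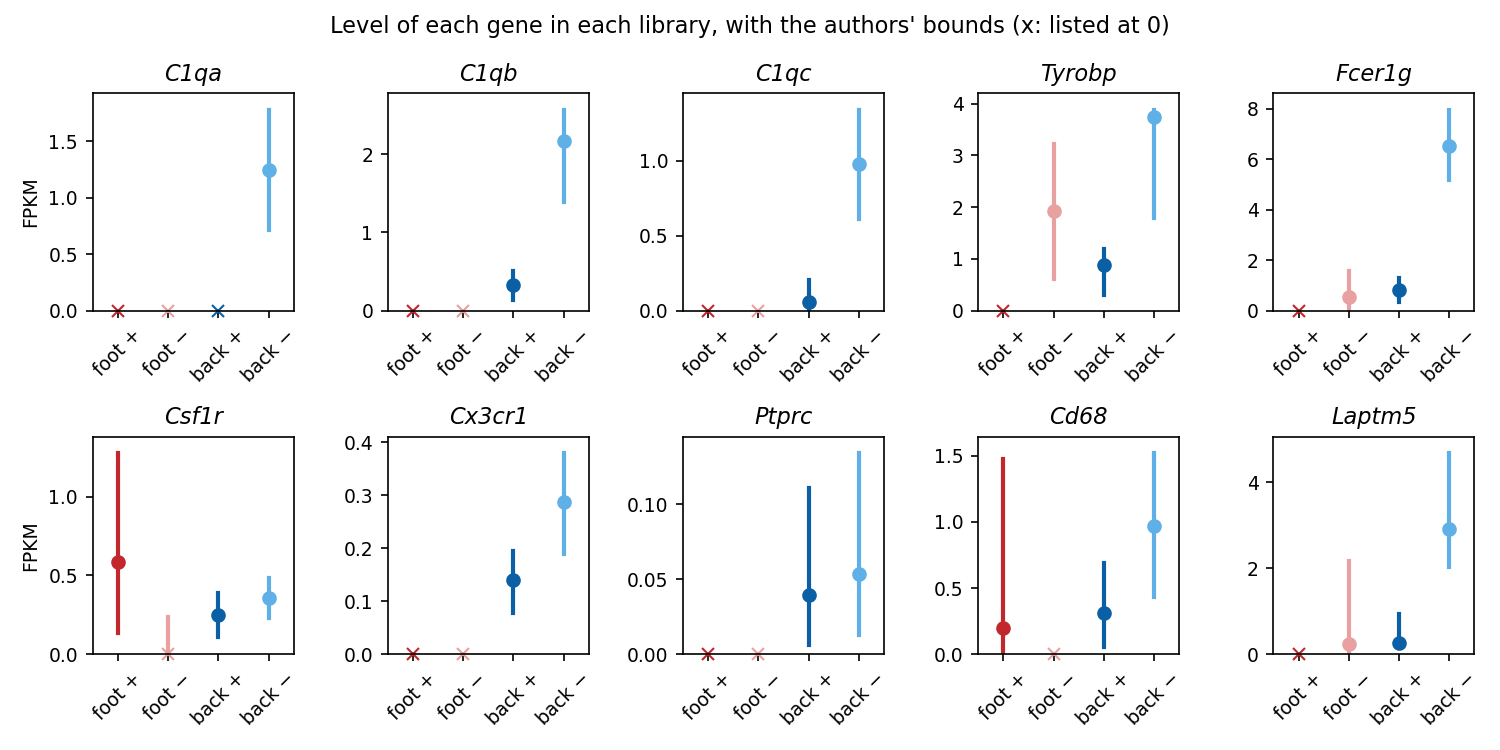
FPKM of each of the 10 genes (vertical axis, linear, with its own scale per gene) in the 4 libraries, where + and − are the labelled sort fractions. Points are deposited values, bars the authors' bounds and crosses values listed at 0; 9 of the 10 genes stand highest in the back library labelled Axin2-negative, Csf1r being the exception.

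The regions upstream of 4 genes that were clearly apart between the back libraries are shown because transcription of macrophage genes is known to rest on PU.1, a factor whose sites hold the letters GAGGAA. RefSeq start sites on GRCm38.p6, a later build than that of the expression files, were matched by symbol for 7 of the 10 genes, with 8 windows of 250 bases; C1qa, Tyrobp and Csf1r had none in the table used. Capitals mark GAGGAA or its reverse complement TTCCTC. Each sequence runs 5′ to 3′ along the gene's strand and ends at the base before the start site.
C1qb (chr4:136886201-136886450, minus strand): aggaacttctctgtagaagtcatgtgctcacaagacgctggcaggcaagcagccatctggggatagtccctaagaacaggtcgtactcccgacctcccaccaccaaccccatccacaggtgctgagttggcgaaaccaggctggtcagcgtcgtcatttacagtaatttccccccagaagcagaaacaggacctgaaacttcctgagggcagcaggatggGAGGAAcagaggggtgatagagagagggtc
C1qc (chr4:136892915-136893164, minus strand): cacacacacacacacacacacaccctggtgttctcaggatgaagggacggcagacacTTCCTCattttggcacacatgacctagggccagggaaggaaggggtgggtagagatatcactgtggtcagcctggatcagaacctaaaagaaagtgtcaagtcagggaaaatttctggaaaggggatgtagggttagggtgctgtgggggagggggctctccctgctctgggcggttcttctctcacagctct
Fcer1g (chr1:171234350-171234599, minus strand): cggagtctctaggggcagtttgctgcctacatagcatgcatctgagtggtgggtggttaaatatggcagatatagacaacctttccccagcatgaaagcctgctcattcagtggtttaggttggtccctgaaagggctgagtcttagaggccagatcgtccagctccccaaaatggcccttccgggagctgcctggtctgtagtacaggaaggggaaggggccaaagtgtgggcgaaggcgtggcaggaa
Laptm5 (chr4:130913066-130913315, plus strand): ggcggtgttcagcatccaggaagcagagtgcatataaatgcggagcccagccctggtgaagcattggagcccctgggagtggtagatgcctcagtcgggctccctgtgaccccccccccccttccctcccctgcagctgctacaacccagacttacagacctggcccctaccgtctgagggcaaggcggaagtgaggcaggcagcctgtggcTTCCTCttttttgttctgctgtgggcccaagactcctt
GAGGAA or TTCCTC was present in 5 of the 8 windows, those of C1qb, C1qc, Laptm5, Cd68 and 1 of the 2 overlapping windows of Ptprc, and in 23.3% of 32851 such windows over all genes. Its leftmost base lay 30 bases before the start in C1qb, 38 in Laptm5 and 193 in C1qc. The letters TGTGGT or ACCACA, of RUNX factors, were in 2 of the 8 windows and in 14.05% of all windows. TTGCNNAA or its reverse complement TTNNGCAA, of C/EBP factors, was in 1 of the 8 and in 9.56% of all. Both strands were searched, matches of different motifs overlapped in 0 of the 8 windows, and a match is a description, not a binding site.

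The C1q genes lie side by side on chromosome 4 (mm9, 136436044 to 136454718, a span of 18675 bases), in the order C1qb, C1qc, C1qa, with gaps of 3616 and 2851 bases. All 3 chains were seen in the back library labelled Axin2-negative and none in either foot library. C1qa was listed at 0 in both foot libraries and in the back library labelled Axin2-positive, and stood at 1.25 FPKM (0.713 to 1.78) in the back library labelled Axin2-negative. C1qb was listed at 0 in both foot libraries and stood at 0.328 FPKM (0.133 to 0.507) and 2.17 FPKM (1.39 to 2.57) in the back libraries labelled Axin2-positive and Axin2-negative. C1qc was listed at 0 in both foot libraries and stood at 0.0581 FPKM (0 to 0.203) and 0.979 FPKM (0.612 to 1.34) in the same back libraries. The bounds of the back libraries were apart for each chain. C1qb was 6.62-fold higher in the library labelled Axin2-negative as deposited, with 2.75-fold to 19.3-fold spanned by the bounds. The C1qc fold was 16.9 with at least 3.01 at the bounds, and its value in the library labelled Axin2-positive amounts to only about 1.35 implied fragments. On this scale, which is per length, C1qb stood above the other 2 chains in the back library labelled Axin2-negative. The bounds of C1qb and C1qc were apart there and those of C1qb and C1qa overlapped.

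The ITAM adaptors were the 2 highest of the 10 genes. Tyrobp (chromosome 7, mm9, 31198807 to 31202596) encodes DAP12, which pairs with receptors such as Trem2. It was listed at 0 in the foot library labelled Axin2-positive, and stood at 1.92 FPKM (0.614 to 3.22) in the foot library labelled Axin2-negative, 0.887 (0.309 to 1.18) in the back library labelled Axin2-positive and 3.74 (1.79 to 3.88) in the back library labelled Axin2-negative. It was the only gene of the 10 whose bounds were apart between the foot fractions. In the back the fold was 4.22, with 1.51 to 12.6 at the bounds.

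Fcer1g (chromosome 1, mm9, 173159703 to 173164496) encodes the gamma chain of Fc receptors, used by macrophages and also by mast cells as part of the IgE receptor. It was listed at 0 in the foot library labelled Axin2-positive, and stood at 0.553 FPKM (0 to 1.59) in the foot library labelled Axin2-negative, 0.803 (0.327 to 1.30) in the back library labelled Axin2-positive and 6.52 (5.16 to 7.96) in the back library labelled Axin2-negative. The last value stands above the bounds of all the others, which overlap where they are above 0. The fold between the back fractions was 8.13, with 3.98 to 24.3 at the bounds.

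The surface receptors were lower still. Csf1r (chromosome 18, mm9, 61265226 to 61291803; its end differed between the tables) stood at 0.588 FPKM (0.137 to 1.28) in the foot library labelled Axin2-positive, was listed at 0 (0 to 0.235) in the foot library labelled Axin2-negative, and stood at 0.250 (0.112 to 0.389) and 0.357 (0.231 to 0.482) in the back libraries labelled Axin2-positive and Axin2-negative. Csf1r was the only one of the genes with its highest value in the foot, and within each skin its bounds overlapped. Cx3cr1 (chromosome 9, mm9, 119957811 to 119977400), the receptor for the chemokine encoded by Cx3cl1, was listed at 0 in both foot libraries and stood at 0.140 (0.0778 to 0.195) and 0.287 (0.190 to 0.379) in the back libraries, a fold of 2.05 whose bounds just overlap. Ptprc (chromosome 1, mm9, 139959438 to 140071882) was listed at 0 in both foot libraries and stood at 0.0395 (0.00582 to 0.111) and 0.0534 (0.0130 to 0.134) in the back libraries. This pan-leukocyte gene was thus at or near 0 in all 4 libraries, and its back values amount to about 3.52 and 4.16 implied fragments.

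The remaining 2 genes encode proteins of lysosomal membranes. Cd68 (chromosome 11, mm9, 69477715 to 69479655), a glycoprotein of macrophage lysosomes, stood at 0.200 FPKM (0 to 1.48) in the foot library labelled Axin2-positive, was listed at 0 in the foot library labelled Axin2-negative, and stood at 0.311 (0.0566 to 0.687) and 0.970 (0.434 to 1.52) in the back libraries labelled Axin2-positive and Axin2-negative. Laptm5 (chromosome 4, mm9, 130469040 to 130492056), a lysosomal protein of blood cells, was listed at 0 in the foot library labelled Axin2-positive, and stood at 0.232 (0 to 2.17) in the foot library labelled Axin2-negative, 0.249 (0.137 to 0.928) in the back library labelled Axin2-positive and 2.91 (2.02 to 4.67) in the back library labelled Axin2-negative. Between the back fractions the bounds of Cd68 overlapped and those of Laptm5 were apart, and the difference between the 2 genes was not tested. The Laptm5 fold was 11.7, with 2.18 to 34.1 at the bounds.

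In the back library labelled Axin2-negative, where all could be ordered, Fcer1g stood first, followed by Tyrobp, Laptm5, C1qb, C1qa, C1qc, Cd68, Csf1r, Cx3cr1 and Ptprc. Fcer1g and Tyrobp differed beyond their bounds, as did Cx3cr1 and Ptprc at the other end. Every other pair of neighbours in this order had overlapping bounds.

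Within the back, all 10 genes were lower in the library labelled Axin2-positive, with a median log2 ratio of -1.22, while 9746 of 19595 units above 0 in either back library were lower. Fcer1g had a log2 ratio of -2.29 (-3.03 to -1.63 at the bounds), Laptm5 of -1.88 (-2.59 to -0.81), Tyrobp of -1.53 (-2.14 to -0.50), C1qb of -1.46 (-1.89 to -0.82), C1qa of -1.37 (-1.71 to -0.93) and C1qc of -1.08 (-1.44 to -0.54). These are the 6 of 10 whose bounds were apart and lower. Among all units this held for 6.44%, and for 4.92% of units no higher than Fcer1g. For C1qa both bounds were 0 in the library labelled Axin2-positive, so any lower bound above 0 in the other library counted as apart. Cd68, Cx3cr1, Csf1r and Ptprc had log2 ratios of -0.73, -0.24, -0.18 and -0.03 with overlapping bounds. By the rule of at least 2-fold with the larger FPKM at least 5, Fcer1g alone could be tested and was lower, against 3.66% of all units. With the larger FPKM at least 1, all 5 genes tested were lower (C1qa, C1qb, Tyrobp, Fcer1g and Laptm5), against 3.71% of all units. Each passed its floor only through the library labelled Axin2-negative, so the filter fixed the direction and these counts are no support for it. None of the 10 had bounds apart and higher, against 20.9% of all units. Bounds were compared as deposited, so these shares include the difference in scale between the back libraries (factors of 0.893 and 0.786). By the rescaled 2-fold rule at 5 FPKM, 4.61% of all units were higher and 3.66% lower. Without Fcer1g and Tyrobp, which mast cells also use, the median was -0.90.

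**Figure D2:**
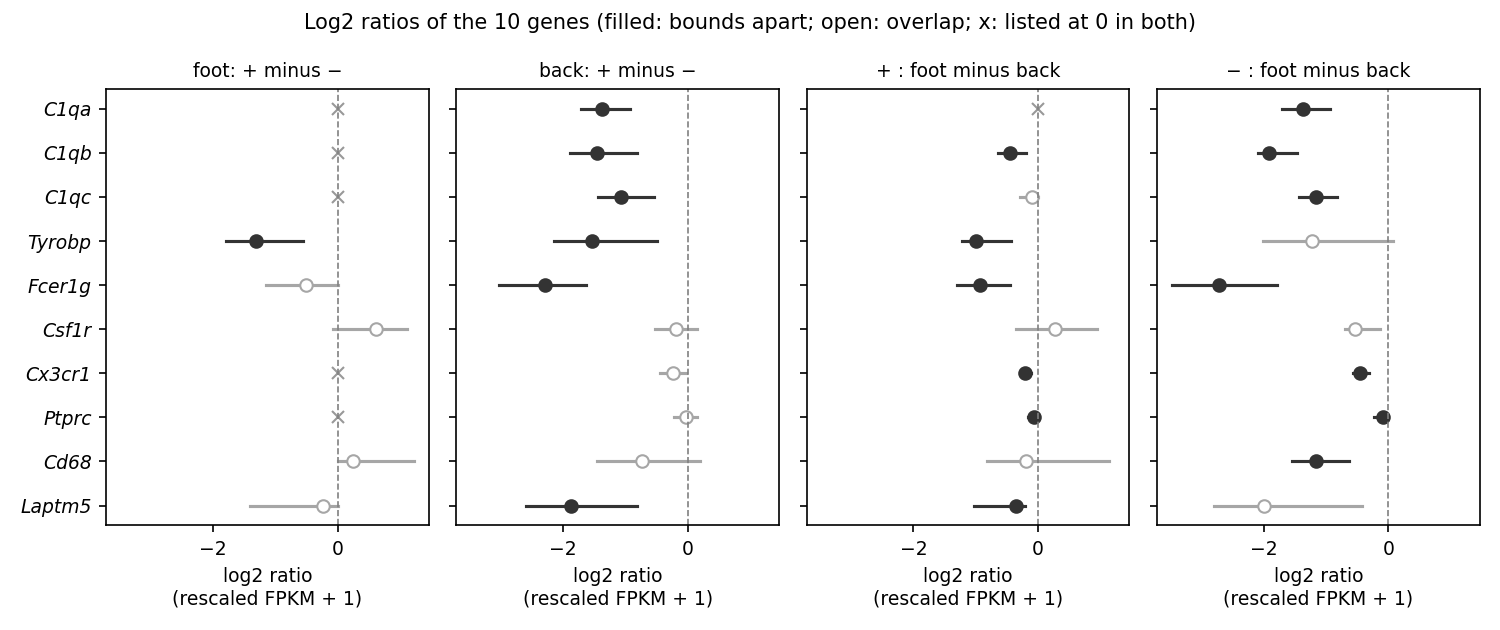
Log2 ratios (horizontal axis) of the 10 genes in the 4 pairwise comparisons, with lines spanning the authors' bounds. Filled points have bounds apart, open points overlap and crosses are listed at 0 in both libraries; in the back 6 filled points lie below 0, and in the foot 1 does, Tyrobp.

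The foot showed no common direction. C1qa, C1qb, C1qc, Cx3cr1 and Ptprc were listed at 0 in both foot libraries, and none of the 10 genes was above 0 in both. Of the 5 genes above 0 in either, Tyrobp, Fcer1g and Laptm5 were lower in the library labelled Axin2-positive (log2 ratios of -1.30, -0.51 and -0.23) and Csf1r and Cd68 higher (0.62 and 0.24). The median of -0.23 turns to 0.24 without Fcer1g and Tyrobp. Bounds were apart and lower for 1 of 5, Tyrobp (-1.79 to -0.55), against 23.8% of all units, and apart and higher for 0 of 5, against 9.62%. In the library labelled Axin2-positive both bounds of Tyrobp were 0, so any lower bound above 0 in the other library counted as apart. Tyrobp was also the 1 gene that reached 1 FPKM, and it was at least 2-fold lower, against 11.2% of all units. It reached that floor only in the library labelled Axin2-negative, so the filter fixed its direction.

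**Figure D3:**
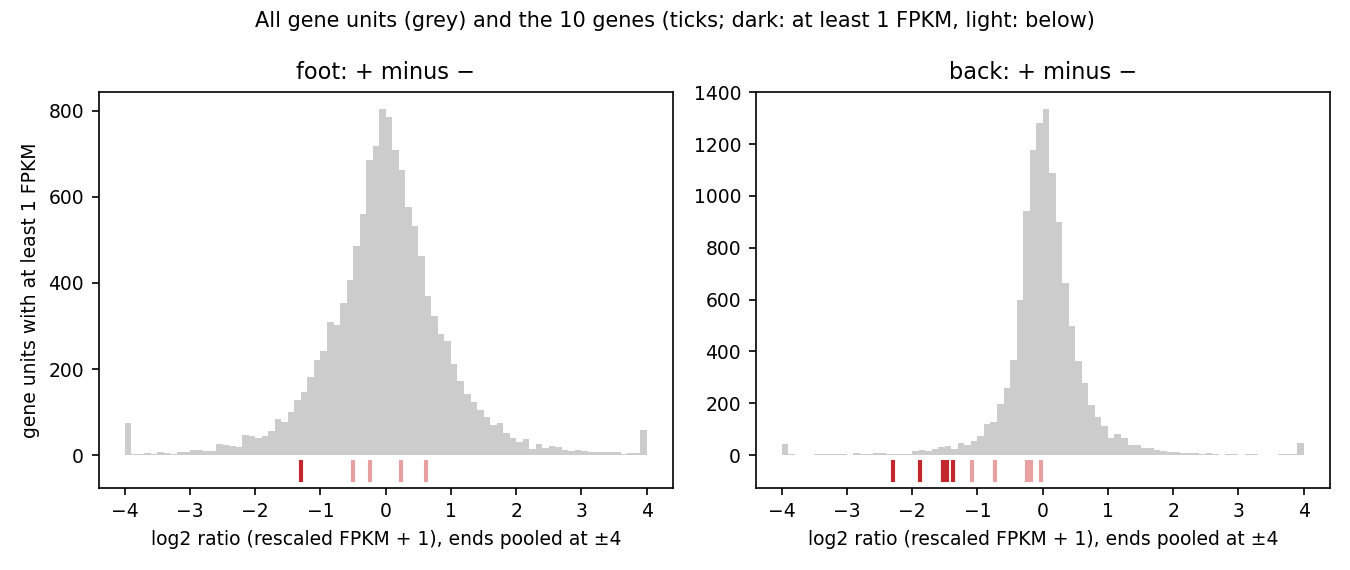
Number of gene units of at least 1 FPKM (vertical axis) by log2 ratio of the labelled Axin2-positive to the negative fraction (horizontal axis), in the foot and in the back. Ticks below 0 are the genes described here that are above 0 in either library, dark where they reach 1 FPKM; in the back they run from -2.29 to -0.03, and in the foot from -1.30 to 0.62.

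Between skins, the foot was lower for most of the genes under both labels. For the positive label 8 of 9 genes above 0 in either library were lower in the foot, with a median log2 ratio of -0.21 and Csf1r as the exception (0.26), while 11217 of 18411 units were lower. Bounds were apart and lower for 6 of 9 (Ptprc, C1qb, Tyrobp, Fcer1g, Cx3cr1 and Laptm5), against 21.7% of all units and 23.6% of units no higher than 6.52 FPKM. They were apart and higher for 0 of 9, against 22.1%. All 6 were listed at 0 in the foot with both bounds at 0, so any back lower bound above 0 counted as apart, whatever the depth. The count of 6 therefore restates the values listed at 0. Tyrobp had a log2 ratio of -0.99 and Fcer1g of -0.93, and no gene reached 1 FPKM in either library, so none could be counted as 2-fold apart. The median over the 2 genes above 0 in both, Csf1r and Cd68, was 0.04.

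For the negative label all 10 genes were lower in the foot, with a median of -1.20, while 11132 of 18999 units were lower. Bounds were apart and lower for 7 of 10 (Ptprc, Cd68, C1qa, C1qb, C1qc, Fcer1g and Cx3cr1), against 13.2% of all units and 14.7% of units as low. They were apart and higher for 0 of 10, against 35.9%. All of the 7 but Fcer1g were listed at 0 in the foot with both bounds at 0, so any back lower bound above 0 counted as apart. For these the count restates the values listed at 0. Fcer1g had a log2 ratio of -2.71 (-3.48 to -1.78) and C1qb of -1.91 (-2.09 to -1.47). Laptm5 at -1.997, Tyrobp at -1.23 and Csf1r at -0.54 had deposited bounds that overlapped. With bounds rescaled like the ratios, Laptm5 (-2.80 to -0.43) and Csf1r (-0.69 to -0.13) were also apart, making 9 of 10. In the back Cx3cr1 (-0.45 to -0.03) was then apart as well, making 7 of 10. No share of all units was computed for rescaled bounds, so the shares for deposited bounds do not apply to these counts. Fcer1g was the 1 gene tested at 5 FPKM and was at least 2-fold lower, against 13.1% of all units, and at 1 FPKM all 5 tested were, against 14%. Of these 5 only Tyrobp also reached 1 FPKM in the foot. The others passed the floor only through the back library, which fixed their direction.

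The foot libraries also listed more genes at 0, at 44.6% and 40.3% of coding units for the positive and negative labels against 32.0% and 30.5% in the back. At the level of the back library labelled Axin2-negative, the 10 genes would have given about 0.938 (Ptprc) to 16.8 (Fcer1g) fragments in the foot library labelled Axin2-positive, and 2.73 to 49.1 in the foot library labelled Axin2-negative. Of the genes that would have given at least 5 fragments, 4 of 4 and 6 of 9 were listed at 0 in these libraries. Among coding units of the same expected range and at least 5 fragments, 11.8% and 13.5% were listed at 0. In the back library labelled Axin2-positive the corresponding figures were 1 of 10, C1qa, and 3.88%. The expected fragments start from the back library labelled Axin2-negative, where most of the 10 genes stood highest. The coding units were held to the same range but not to standing highest there. These counts are therefore no support for a direction. The fragments are implied from the bounds and approximate, and whether a 0 is a failed estimate was not tested.

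The difference between the foot and back log2 ratios was above 0 for all 10 genes as labelled, with a median of 1.02, and for 10040 of 20231 units. With the foot labels turned, an alternative added after seeing the data because of the foot Axin2 values, it was above 0 for 9 genes, with a median of 1.22, and for 10496 units. Csf1r then went from 0.80 to -0.43 and Tyrobp from 0.23 to 2.83. For C1qa, C1qb, C1qc, Cx3cr1 and Ptprc, listed at 0 in both foot fractions, it repeats the back ratio. Of the remaining genes Fcer1g had a difference of 1.79 (0.49 to 3.03 at the bounds) and was the 1 gene tested at 5 FPKM and at least 2-fold higher, against 12.8% of all units. At 1 FPKM 4 of 5 were (C1qa, C1qb, Fcer1g and Laptm5), against 13%. These 4 passed the floor only through the back library labelled Axin2-negative, so the count is no support for a direction. The bounds of Laptm5, Tyrobp, Csf1r and Cd68 spanned 0. All but the turned values take their foot sign from the labels.

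Of the 3 ligands of these receptors, 1 had bounds apart in the back. Csf1, the growth factor for the Csf1r receptor, had 4.52 FPKM (2.75 to 6.86) in the foot library labelled Axin2-positive and 3.66 (2.69 to 4.64) in its Axin2-negative counterpart, and the back libraries in the same order had 3.17 (2.75 to 3.70) and 1.59 (1.24 to 2.02). In the back Csf1 was higher in the fraction where the 10 genes were lower, with bounds apart and a log2 ratio of 0.59. Il34, the other ligand, was listed at 0 in the foot library labelled Axin2-positive and stood at 2.10 (0.175 to 4.14), 1.38 (0.943 to 1.81) and 0.936 (0.468 to 1.44) in the others. Cx3cl1 was listed at 0 in the foot and stood at 0.240 and 0.206 in the back. The bounds of Il34 and Cx3cl1 overlapped between the back fractions.

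Other macrophage genes mostly shared the back direction. Of 24 measured, 23 were above 0 in either back library, 21 of them lower in the library labelled Axin2-positive, with a median log2 ratio of -0.32, 9 with bounds apart and lower and 1 apart and higher. Pf4, a chemokine of platelets and macrophages, stood at 1.06 FPKM (0.396 to 1.44) against 7.23, which lies above its own bounds of 3.91 to 6.90. Further genes, chosen after their values were seen, were Mrc1, a mannose receptor, at 0.141 (0.0620 to 0.274) against 0.903 (0.707 to 1.10), Lyz2, a lysozyme, at 0.863 against 2.02, and Mertk, a receptor for dying cells, which went the other way at 0.680 (0.538 to 0.820) against 0.219 (0.127 to 0.313). Stab1, a scavenger receptor, was listed at 0 in the foot library labelled Axin2-negative and the back library labelled Axin2-positive and at 62.2 and 69.5 FPKM in the other two. The foot had 4 of 11 higher and 7 lower (median -0.09). The list summed to 69.3, 10.1, 6.92 and 88.9 FPKM over the libraries in the order used above, most of the first and last from Stab1.

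Genes of most leukocytes gave a like count. Of 19 measured, 17 were above 0 in the back and 16 of these lower in the library labelled Axin2-positive, with a median of -0.33 and 5 apart and lower. Coro1a, an actin-binding protein of blood cells, stood at 0.577 FPKM (0.218 to 1.41) against 3.03 (2.38 to 4.30), and Rac2, a small GTPase of blood cells, at 0.328 (0.220 to 0.440) against 1.48 (1.20 to 1.74); both were chosen after their values were seen and both were listed at 0 in the foot. The 2 highest of the list, Arhgdib and Itgam, were close between the back fractions, at 136 against 128 FPKM and 10.5 against 11.1. Itgam was higher in the foot, at 27.8 and 25.8 FPKM in the libraries labelled Axin2-positive and Axin2-negative, and Arhgdib lower, at 42.8 and 55.5. Cd37 had 12.8 FPKM (9.16 to 18.5) in the foot library labelled Axin2-positive and was listed at 0 in the others. Itgam and Cd37 were the 2 genes with more FPKM in foot than back under the positive label, and 12 had less. Under the negative label 2 had more and 15 less. Of 12 ITAM receptors and kinases 10 were lower (median -0.12). Myeloid transcription factors were lower in 4 of 7, other complement genes in 5 of 7 and monocyte and neutrophil genes in 8 of 8, with medians of -0.05, -0.08 and -0.14. Cebpb was the 1 myeloid factor called at least 2-fold apart in the back, and its higher value was under the positive label. It had 11.3 FPKM (10.2 to 12.3) there and 7.16 (5.05 to 9.30) in the foot, and was listed at 0 in both libraries labelled Axin2-negative. S100a8, of the monocyte and neutrophil list, had 8.72 FPKM in the foot library labelled Axin2-positive and 0 elsewhere. In the foot 1 gene of that list was higher under the positive label and 4 lower. Antigen-presenting cell genes were lower in 3 of 6 and lymphoid genes in 5 of 7. The factors Spi1 and Irf8 are not analysed here.

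Mast cell markers differed between the labelled fractions in both skins. They summed to 3.40 and 271 FPKM in the foot libraries labelled Axin2-positive and Axin2-negative and to 26.3 and 90.6 in the back, and all 8 above 0 in the foot and all 9 in the back were lower in the library labelled Axin2-positive, with medians of -1.21 and -0.91. Cpa3, a mast cell protease, was listed at 0 against 32.7 FPKM in the foot and stood at 14.53 against 49.9 in the back. Cma1, a mast cell chymase, stood at 1.18 against 165 FPKM in the foot and 6.22 against 24.2 in the back. Fcer1a, which encodes the alpha chain of the mast cell IgE receptor, was listed at 0 in all 4 libraries, and Ms4a2, its beta chain, reached 0.193 FPKM at most. Between the libraries labelled Axin2-negative, 5 mast cell genes were higher in the foot and 5 lower, with a median of -0.10. Cma1 and Tpsb2 were among the higher. Cpa3, Hdc, Gata2 and Ms4a2 stood highest in the back library labelled Axin2-negative. Hdc stood at 0.983 against 2.77 FPKM in the foot and 0.668 (0.327 to 1.01) against 3.76 (2.85 to 4.74) in the back. Gata2 was listed at 0 in the foot and stood at 0.783 (0.604 to 0.961) against 1.82 (1.51 to 2.13) in the back. Between the back fractions the bounds of Ms4a2 overlapped and those of Cpa3, Hdc and Gata2 were apart. The part of mast cells in the Fcer1g and Tyrobp values was not tested.

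Other cell types gave these values beside the 10 genes. Erythroid markers were lower in 4 of 5 in the back library labelled Axin2-positive, summing to 5.03 against 14.9 FPKM, and Alas2, the heme synthesis enzyme of red cells, stood at 3.28 against 12.7. Endothelial markers summed to 8.71 and 8.06 FPKM in the back, with a median log2 ratio of 0.01, and to 0.979 and 0.461 in the foot, where 7 of 9 were listed at 0 in each library. Keratinocyte markers were higher in 7 of 7 in the back library labelled Axin2-positive, summing to 48.3 against 25.6 FPKM. Lysosomal genes used by most cells were higher in 8 of 11 there, with a median of 0.09. Of the 12 fibroblast genes 9 were higher (median 0.58). Their part in the values of the 10 genes was not tested.

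**Figure D4:**
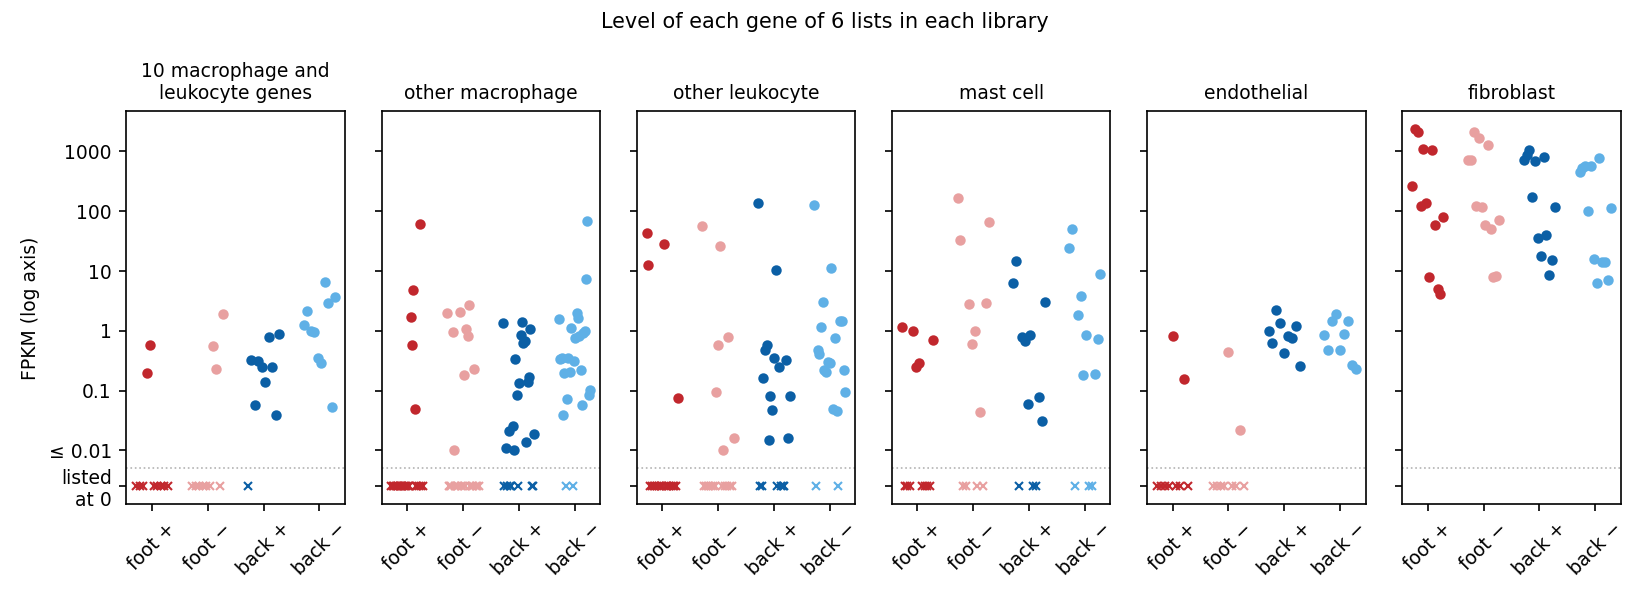
FPKM (vertical axis, log scale, with values listed at 0 as crosses below the dotted line) of each gene of 6 lists in the 4 libraries. The 10 genes stay at or below 6.52 FPKM, while the 12 fibroblast genes stay at or above 4.15 FPKM in every library.

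The mean profile of the 10 genes, as log2 (rescaled FPKM + 1) minus each gene's own mean, was -0.45, -0.33, -0.15 and 0.93 for foot positive and negative, then back positive and negative. Over these 4 libraries the nearest of 8627 units that reached 5 FPKM were Bub3, Crem, Anp32b, Btbd2, Gm10171, P2rx4, a joined locus of Gm20390, Nme1 and Nme2, Gm10273, Cct7 and a joined locus of Ftsjd2, Rnf8 and Tbc1d22b, at root mean square distances of 0.09 to 0.13. Of the 10 genes only Fcer1g reached that level, as did few genes of the leukocyte lists, so the filter kept nearly all such genes from being named here. Bub3, a spindle checkpoint protein, stood at 31.8, 44.6, 38.4 and 64.9 FPKM, so its back values were within 2-fold of each other as deposited, unlike those of Fcer1g. The 10 genes themselves lay at 0.09 (C1qc) to 0.69 (Fcer1g) from their mean.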

How the data were processed

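RNA from sorted dermal cells of 4 libraries, 1 per group, was measured on an Illumina HiSeq instrument with TruSeq mRNA libraries, per the labels' protocols. The authors used TopHat and Cufflinks on mm9, per the submitters' processing notes; for both, version and settings, and likewise the annotation, were not given in the sources used here. Values were deposited as FPKM with a lower and an upper bound, per the file headers, and read counts were not used, so depth is only implied.

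Entries with the same symbol were summed, joined loci were kept as 1 unit (740), and 22 symbols turned into dates in the foot table labelled Axin2-positive were restored. This left 32888 units in all 4 libraries, of which 455 with a status other than OK entered no library factor, no call and no count of units higher or lower. The shares of all coding units listed at 0 in each library did not leave them out. Library factors were median ratios over 4842 units of at least 5 FPKM in every library. Calls needed a 2-fold ratio of (FPKM + 1) and a larger FPKM of at least 5, or of at least 1 where said. Bounds of a ratio set the lower bound of each library against the upper bound of the other, after division by the library factors. Bounds called apart were compared as deposited unless said otherwise. Where both bounds of a value were 0, any lower bound above 0 in the other library counted as apart. In every comparison the shares of units with bounds apart therefore include differences in scale between libraries. Implied fragments took each bound as 2 SD of a count, with transcript lengths from GENCODE vM21 by symbol. Locus starts were raised by 1, since spans matched the annotation as 0-based in 12738 loci and as 1-based in 251.

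The members and gene lists were chosen with earlier results of these data known. The naming rule took all 10 genes, the 10 units nearest in profile, the 2 highest and the 2-fold members of each list, Csf1, Il34 and Cx3cl1. Of the other lists only some of these are named, the rest being given by counts and sums. Pdgfra, Col1a1, Fcer1a, Ms4a2, Hdc, Gata2 and the genes marked so in the text were picked with their values in view. The procedure was tested on simulated data (Python 3.11.15, numpy 2.4.6, pandas 2.3.3, matplotlib 3.10.9).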

Additional observations from a re-analysis of the deposited data

Results flagged for a closer look

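Csf1r and Cd68 had opposite signs in the 2 skins, each with 1 library per fraction. Csf1r had a log2 ratio of the labelled Axin2-positive to the negative fraction of 0.62 in the foot and of -0.18 in the back. Cd68 had 0.24 in the foot and -0.73 in the back. The opposite signs rest on the foot labels, which the Axin2 transcript went against (9.65 FPKM in the library labelled Axin2-positive and 12.9 in that labelled Axin2-negative). With the foot labels turned, the foot ratios were -0.62 for Csf1r and -0.24 for Cd68, the same sign as in the back. The same turn gave Tyrobp, Fcer1g and Laptm5 foot ratios of 1.30, 0.51 and 0.23. Those are opposite in sign to their back ratios of -1.53, -2.29 and -1.88. The difference between the skins was not tested for Csf1r and Cd68. The bounds of these 2 genes overlapped in each skin, and both were listed at 0 in the foot library labelled Axin2-negative.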

How the results depend on the processing

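The size of the ratios depended on the added constant. With a pseudocount of 0.1 the median over the genes was -1.47 in the foot, -2.38 in the back, -1.36 and -3.74 for foot against back under the positive and the negative label, and 2.24 for the difference of the sort ratios, where 1 gene was then below 0 and 0 were called higher. With a pseudocount of 5 it was -0.35 in the back and -0.36 for foot against back under the negative label. From the summed FPKM the log2 ratio was -2.52 in the back and -1.37 and -3.06 for foot against back, and without genes listed at 0 the median for the negative label was -1.997. With FPKM as deposited, and with the foot labels turned, 1 gene had a difference of the sort ratios below 0. Genes called at least 2-fold lower numbered 0 in the foot, 1 in the back and 1 for the negative label between skins, and 1 was called higher in the difference. With a floor of 1 FPKM these became 1, 5, 5 and 4, and with no floor 1, 6, 7 and 5, since more genes could then be tested. The shares of all units at 1 FPKM are given above. With no floor the calls over all units were 1417 of 16151, 455 of 19595, 1825 of 18999 and 1778 of 20231. Rescaling factors from the back libraries alone, chosen after seeing the data, left every count and median of the back comparison within the limits used here (1.5 times, or the bounds). No paired analysis was possible because each group holds 1 library. Leaving out a library was not run, since it leaves no comparison. Depth limits the foot most: for Ptprc the back level would give about 0.938 implied fragments in the library labelled Axin2-positive.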
